A study of Mus musculus with 4 samples.

Results

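The 93 genes described here encode the nuclear part of the mitochondrial respiratory chain, and their transcripts were counted in mouse intestinal organoids. They were chosen by symbol (Nduf, Sdha to Sdhd, Uqcr, Cox4 to Cox8 and Atp5 genes, with Cox17 and Cycs) and by having at least 100 UMIs (distinct RNA molecules) over the 4 libraries, out of 31040 genes in the files. By symbol, 38 are complex I subunits, 8 complex I assembly factors (Ndufaf), 4 complex II subunits, 4 complex II assembly factors (Sdhaf), 8 complex III subunits, 13 complex IV subunits and 16 complex V genes, beside Cycs (cytochrome c) and the copper chaperone Cox17. Ndufa4 and its paralog Ndufa4l2 are kept with complex I by symbol, although Ndufa4 is now known as a subunit of complex IV. Of 99 genes with such a symbol, 6 stayed under the minimum. Cox4i2, Cox7b2, Cox8b and Cox8c had 0 UMIs, a second copy of Atp5o had 1 UMI and the muscle form Cox6a2 had 17 UMIs. The member nearest the minimum was Ndufa4l2 with 129 UMIs, followed by the testis-type subunit Cox6b2 with 412 UMIs.

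The study compared single-cell RNA of organoids, which are crypt-derived cultures of the epithelium with its stem, proliferating and mature cells. Crypts came from 2 mice aged 10 weeks that carried floxed alleles of Cbl and Cblb, genotype Cbl flox/flox; Cbl-b flox/flox, with the Cre recombinase R26Cre ERT2, which 4-hydroxytamoxifen activates. Replated organoids were left without the drug (control) or received it at 400 nM for 3 days to delete both genes (knockout), so control and knockout share the alleles and the Cre, and the deletion and the drug cannot be told apart. A library's number, 1 or 2, is taken to name its mouse, from the mouse tag in the deposited file names. The labels do not say it outright. On that reading each mouse gave 1 library of either kind (n = 2 per group).

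The respiratory chain passes electrons from NADH (complex I) and succinate (complex II) through complex III and cytochrome c to oxygen at complex IV, and complex V uses the proton gradient to make ATP. Most subunits are encoded in the nucleus, translated in the cytosol and imported, and dedicated assembly factors help to build the complexes. In the intestinal epithelium, crypt base and villus cells are known to differ in how far they rely on mitochondrial respiration. Mitochondrially encoded subunits were not analysed here, since no gene with their prefix is among the features.

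After filtering, 1148 and 682 control cells and 1627 and 1902 knockout cells remained in numbers 1 and 2, with 21873194 to 34494253 UMIs per library. Median depth was 19555 and 27457.5 UMIs per cell for controls 1 and 2, and 16071 and 17505.5 for knockouts 1 and 2, so the knockouts were shallower per cell in both numbers. The members took 842919 to 1287462 UMIs per library, with a median of 7045 to 10689 UMIs per member. Values are in CPM (the UMIs of a gene scaled to the same total of UMIs in each sum of cells). Changes are log2 fold changes, knockout over control, ± SE, from edgeR's quasi-likelihood test on sums per library with Benjamini-Hochberg adjustment over all genes tested. The fit with the group alone called 0 members in all cells, where it called 0.0% of 13246 genes, with 12 members at an unadjusted p under 0.05 and 1 member called by DESeq2. The numbers are taken to pair the libraries by mouse. The words "rose" and "fell" therefore refer to an adjusted p under 0.05 in the fit with the mouse (replicate number) as a block. With the block the spread rests on 1 residual degree of freedom and on borrowing across genes. No member call, in all cells or in a class, remained in the main edgeR fit with the group alone. Of the members called in all cells, 1 was still called by DESeq2 with the group alone. Cbl fell from 17.0 (control 1) and 19.9 CPM (control 2) to 12.3 (knockout 1) and 10.5 CPM (knockout 2) (−0.73 ± 0.14, adjusted p = 0.029). Cblb went from 8.51 and 3.93 to 3.35 and 0.464 CPM (−2.01 ± 0.39, adjusted p = 0.0291). Which exons are deleted is not given in the sources used here, and a tag outside them would not show the deletion.

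Summed over all cells, the chain as a whole differed little between control and knockout, and its genes were called less often than all genes. All members together made 40300 (control 1), 38500 (control 2), 38200 (knockout 1) and 37300 CPM (knockout 2), a log2 ratio of −0.08 in number 1 and −0.05 in number 2. Of the 93 members 2 rose and 6 fell, which is below the share of all genes called, 4.1% higher and 7.78% lower. The median member stood at −0.06, with an interquartile range from −0.20 to 0.04, against −0.01 for all genes. The genes that fell were the subunits Ndufa1, Ndufa3, Ndufv3, Cox7a1 and Atp5e and the chaperone Cox17, and the genes that rose were the assembly factors Ndufaf2 and Ndufaf4. Both knockouts lay below both controls for 36 members and above for 19, against 19.1% and 22.1% of all genes tested.

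Ndufa1, a small membrane subunit of complex I encoded on the X chromosome (GRCm38, 37187588 to 37191163), had 186 (control 1), 168 (control 2), 125 (knockout 1) and 107 CPM (knockout 2). It fell by 0.64 on the log2 scale (SE 0.08, adjusted p = 0.0091). The groups did not overlap, and the knockout of each mouse held 0.675 and 0.640 of its control. Ndufa3, another small accessory subunit, had 130 and 112 CPM in the controls and 101 and 91.9 CPM in the knockouts (−0.37 ± 0.08, adjusted p = 0.0371). Ndufv3, a subunit of the NADH-oxidising module, had 229 and 206 against 166 and 174 CPM (−0.39 ± 0.09, adjusted p = 0.0466). The groups did not overlap for either gene. With class shares held at those of the same-numbered control, the log2 ratio of Ndufv3 in numbers 1 and 2 went from −0.46 and −0.24 to −0.31 and −0.06, and that of Ndufa3 from −0.37 and −0.29 to −0.34 and −0.20.

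The other 35 complex I subunits did not pass the test. Core subunits that carry the flavin and iron-sulfur clusters lay near 0, with Ndufv1 at 197 and 184 against 208 and 191 CPM (0.03) and Ndufs1 at 71.6 and 67.1 against 76.9 and 65.0 CPM (−0.01). Ndufa4 stood at 989 and 943 against 926 and 970 CPM (−0.07), and Ndufb8 at 387 and 386 against 378 and 385 CPM (−0.06). Ndufa4l2, known as a hypoxia-induced gene, had only 1.5, 0.0457, 2.34 and 0.609 CPM in controls 1 and 2 and knockouts 1 and 2 (1.13 ± 0.55, adjusted p = 0.219), so mice and groups overlapped.

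In all cells 7 of the 8 assembly factors of complex I had a positive change. Within classes that was not so in cycling-like (4 of 8 positive, median −0.01), enterocyte-like (3 of 8, −0.12), goblet-like (4 of 8, 0.07) or stem-like cells (2 of 8, −0.20). In Paneth-like cells 5 of the 7 tested factors were positive, with a median of 0.11. Ndufaf2, which binds a late assembly intermediate, rose from 59.5 (control 1) and 49.5 CPM (control 2) to 76.5 (knockout 1) and 65.8 CPM (knockout 2) (0.35 ± 0.07, adjusted p = 0.036). Ndufaf4, which acts with Ndufaf3 in early assembly, rose from 65.8 and 65.5 to 88.7 and 83.0 CPM (0.35 ± 0.08, adjusted p = 0.0391). Neither gene overlapped between groups. With class shares held at those of the same-numbered control, the log2 ratio in numbers 1 and 2 went from 0.36 and 0.41 to 0.25 and 0.22 for Ndufaf2 and from 0.43 and 0.34 to 0.29 and 0.15 for Ndufaf4. Ndufaf6 stood at 0.27 (adjusted p = 0.0842) and Ndufaf1 at 0.03, while Ndufaf8 was the one below 0 (−0.22, adjusted p = 0.111). Summed, the 8 factors had 365 and 343 CPM in the controls and 409 and 375 CPM in the knockouts.

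Neither subunits nor assembly factors of complex II passed the test in all cells. The flavoprotein Sdha had 202 and 173 against 205 and 163 CPM (−0.07), and the iron-sulfur subunit Sdhb 280 and 310 against 265 and 249 CPM (−0.24, adjusted p = 0.148). The summed subunits made 903 and 858 CPM in the controls and 896 and 714 CPM in the knockouts, so the difference was mainly in mouse 2. The 4 Sdhaf genes were all above 0, with Sdhaf1, needed to insert iron-sulfur clusters into Sdhb, at 74.5 and 58.6 against 90.3 and 77.2 CPM (0.30, adjusted p = 0.0594).

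In complex III no member passed, and 7 of 8 changes were negative. The largest were in the small subunits Uqcr11 (611 and 557 against 453 and 496 CPM, −0.34, adjusted p = 0.0777) and Uqcrq (861 and 951 against 711 and 775 CPM, −0.33, adjusted p = 0.0600). The core protein Uqcrc1 stood at −0.06, Uqcrb at −0.06 and the Rieske protein Uqcrfs1 at 0.02. Cycs, the mobile electron carrier between complexes III and IV, separated mice more than groups, with 340 and 451 CPM in the controls and 382 and 399 CPM in the knockouts (−0.04).

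Complex IV had the lowest median of the groups with more than 1 gene, −0.20, and 11 of its 13 changes were negative. Its large nuclear subunit Cox4i1 was the member with the highest CPM, a scale not set per length, at 1740 and 1530 against 1680 and 1530 CPM (−0.06). Cox5a stood at 0.08, Cox6a1 at −0.17, Cox7a2 at −0.23, Cox7a2l at −0.15 and Cox8a at −0.19. Cox7a1, the contractile-muscle form of a subunit that other tissues make as Cox7a2, had the largest fall of all members. It went from 27.5 (control 1) and 39.8 CPM (control 2) to 12.1 (knockout 1) and 18.4 CPM (knockout 2) (−1.18 ± 0.10, adjusted p = 0.00318). Its share of the Cox7a1 and Cox7a2 UMIs went from 4.37% and 6.03% to 2.32% and 3.16%. Cox6b2 stood highest, with 2.90 and 1.97 CPM in the controls and 4.89 and 4.23 CPM in the knockouts (0.88 ± 0.21), just outside the threshold with an adjusted p of 0.0503.

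Cox17, which carries copper to complex IV, fell from 101 (control 1) and 104 CPM (control 2) to 66.1 (knockout 1) and 70.4 CPM (knockout 2) (−0.63 ± 0.08, adjusted p = 0.00807). Its gene (chromosome 16, 38346991 to 38352763) overlaps Gm21987 on the same strand, and how the counting assigned shared reads is not given in the sources used here. In the annotation 43 of the 93 genes overlap another gene, 34 of them on the opposite strand, and such values are less certain for the same reason. Atp5e, the small epsilon subunit of the complex V motor, fell from 706 and 669 to 527 and 545 CPM (−0.40 ± 0.09, adjusted p = 0.0417). The other 15 complex V genes did not pass. The catalytic subunits Atp5a1 (970 and 900 against 1030 and 914 CPM) and Atp5b (1460 and 1320 against 1570 and 1330 CPM) both stood at 0.02. The 3 genes for the same mature ring subunit, Atp5g1, Atp5g2 and Atp5g3, stood at 0.13, 0.11 and −0.04, and Atp5k at −0.15. Summed, the complex V genes were level, at 11900 and 11300 CPM in the controls and 11800 and 11300 CPM in the knockouts.

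**Figure D1:**
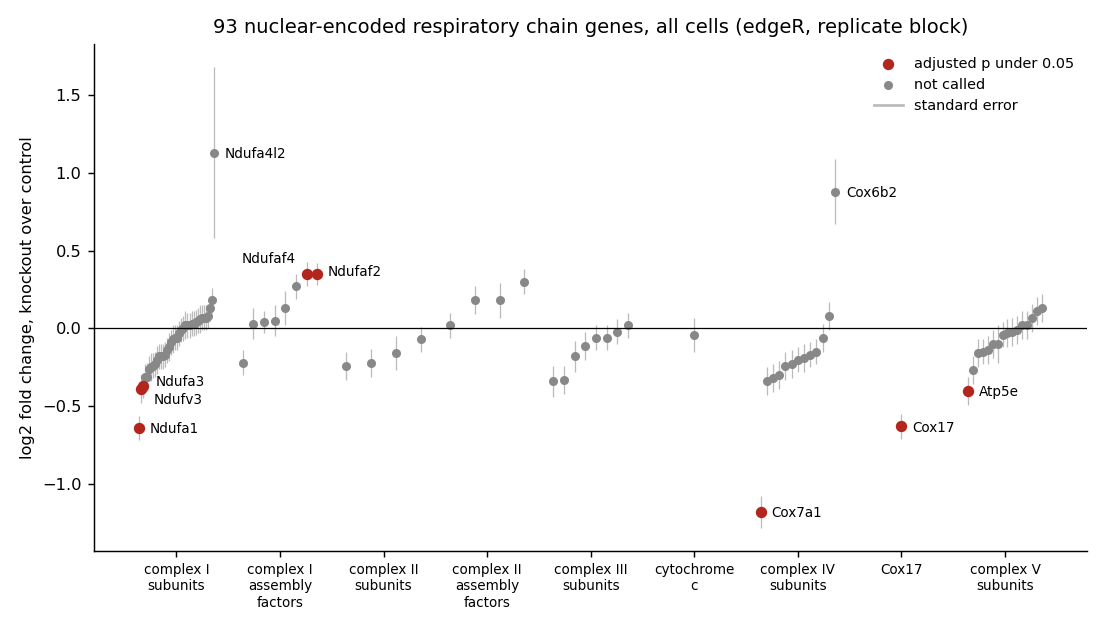
Log2 fold change, knockout over control, of the 93 genes in all cells, grouped by complex and ordered by value within each group. Red points passed an adjusted p of 0.05 in the fit with the replicate block, grey points did not, and bars are standard errors. The falls of Cox7a1 (−1.18), Ndufa1 (−0.64) and Cox17 (−0.63) stand apart from the rest.

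Cox7a1 was highest in enterocyte-like cells, whose share was lower in the knockouts, while Ndufa1, Cox17 and Atp5e were lower within cell types too. Clusters were named from marker genes into 5 classes that could be tested, cycling-like, stem-like, enterocyte-like (absorptive), goblet-like (mucus-secreting) and Paneth-like (antimicrobial). In enterocyte-like cells Cox7a1 had 151 (control 1), 138 (control 2), 121 (knockout 1) and 124 CPM (knockout 2) (−0.20, adjusted p = 0.834). In cycling-like cells it had 6.34, 4.82, 4.05 and 4.32 CPM in the same order. Enterocyte-like cells made up 20.9% and 38.7% of control cells and 12.8% and 15.2% of knockout cells. With class shares held at those of the same-numbered control, the log2 ratio of Cox7a1 in all cells went from −1.18 to −0.36 in number 1 and from −1.11 to −0.19 in number 2. Cox7a1 passed the test in none of the 5 classes. Its share of Cox7a1 and Cox7a2 UMIs in enterocyte-like cells was 16.2%, 16.3%, 15.6% and 14.3%. How much of its low count in the other classes is free RNA was not tested.

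Ndufa1 had lower values in both knockouts than in both controls in each of 6 classes (the 5 above and enteroendocrine-like cells), and so did Atp5e and the complex IV subunit Cox6c. These 3 are 3.30% of the 91 members with enough counts in each class, against 0.0856% of 9345 genes. The minimum was 10 UMIs per class over the 4 libraries, and members and other genes were not matched for level. The 6 classes also come from the same 4 libraries. In enterocyte-like cells Ndufa1 had 267 (control 1), 246 (control 2), 195 (knockout 1) and 166 CPM (knockout 2) (−0.49, adjusted p = 0.127). In Paneth-like cells the values were 239 and 187 against 164 and 126 CPM (−0.62, adjusted p = 0.138). It fell in goblet-like cells, from 171 and 153 to 122 and 96.0 CPM (−0.66 ± 0.10, adjusted p = 2.91e-08), and in cycling-like cells, from 154 and 134 to 113 and 92.7 CPM (−0.53 ± 0.07, adjusted p = 0.00332). With class shares held at those of the control, its ratio in all cells was −0.48 and −0.52 in numbers 1 and 2.

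Cox17 was lower in both knockouts in the 5 tested classes. In stem-like cells it fell from 98.7 CPM in both controls to 62.5 and 59.9 CPM (−0.74 ± 0.14, adjusted p = 5.35e-05), and control 2 rests on 17 cells there. Enterocyte-like cells had values of 137 and 152 against 95.6 and 107 CPM (−0.48, adjusted p = 0.143). Enteroendocrine-like cells had 149 and 94.3 against 109 and 103 CPM, so there the groups overlapped. Atp5e had 903 and 842 against 662 and 647 CPM in enterocyte-like cells (−0.39, adjusted p = 0.440) and fell in goblet-like cells from 675 and 674 to 500 and 520 CPM (−0.48 ± 0.09, adjusted p = 1.85e-05).

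**Figure D2:**
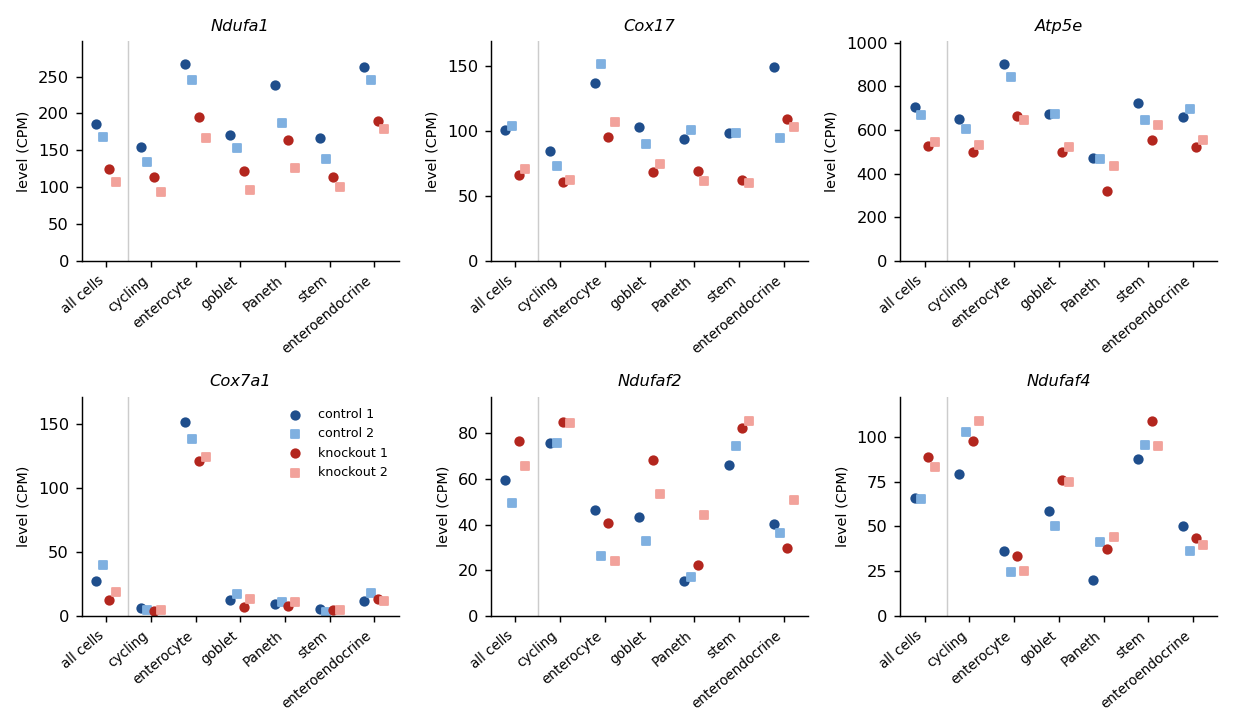
Level in CPM (y axis, from 0) of 6 genes in all cells and in 6 named classes; each point is 1 library, blue for controls, red for knockouts, circles for number 1 and squares for number 2. Ndufa1 and Atp5e lie lower in both knockouts in each class, whereas Cox7a1 is high in enterocyte-like cells of all 4 libraries (121 to 151 CPM).

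In cycling-like cells 17 of 92 tested members fell and 0 rose, against 2.81% of all genes lower and 2.02% higher. The group alone called 0 members there (0.0% of genes, and 11 members at an unadjusted p under 0.05), as did DESeq2 with the group alone. The median member stood at −0.11, while that of all genes was near 0. Complex IV held 7 of the 17. Cox7c fell from 1220 (control 1) and 1190 CPM (control 2) to 930 (knockout 1) and 971 CPM (knockout 2) (−0.39 ± 0.05, adjusted p = 0.00373), and Cox6c from 989 and 876 to 740 and 778 CPM (−0.34 ± 0.06, adjusted p = 0.0159). Cox5b, Cox6b1, Cox7a2, Cox7a2l and Cox8a fell by 0.23 to 0.27. In complex III, Uqcrq fell from 909 and 1010 to 728 and 792 CPM (−0.38 ± 0.05, adjusted p = 0.00391), and Uqcr11 also fell (−0.28).

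Complex I contributed Ndufa1, Ndufb2 (−0.39), Ndufb4 (−0.32), Ndufa6 (−0.29) and Ndufa5 (−0.28), all accessory subunits. Sdhb (−0.26), Cox17 (−0.40) and Atp5e (−0.33) make up the rest. Within the class, the cluster led by Psph and Ly6a held 12.9% (control 1), 57.0% (control 2), 19.8% (knockout 1) and 64.8% (knockout 2) of its cells and has no cycling marker among its 10 leading genes. Without it, an alternative chosen after the data were seen, 30 members fell and 0 rose. Without TMM scaling 5 fell, and by DESeq2 with the block 3 fell. Cytosolic ribosome genes also fell in this class, 35 of 83 with a median of −0.18, as did 17 of 83 in stem-like and 22 of 83 in goblet-like cells, so falls of this size were not shown to be particular to the chain.

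In stem-like cells 9 of 92 members fell and 0 rose, against 1.43% of all genes lower and 0.766% higher, and the median was −0.14. The group alone called 0 members (0.0103% of genes, with 19 members at an unadjusted p under 0.05), as did DESeq2. Ndufa1 fell from 166 and 138 to 113 and 99.6 CPM (−0.59 ± 0.12, adjusted p = 0.000341). Cox7c fell from 1290 (control 1) and 1350 CPM (control 2) to 985 (knockout 1) and 1030 CPM (knockout 2) (−0.45 ± 0.10, adjusted p = 0.00056), and Ndufb2 from 223 and 208 to 152 and 170 CPM (−0.52 ± 0.11, adjusted p = 0.000837). Ndufb2 overlaps Braf on the opposite strand, and the strand setting of the counting is not given. Cox17, Cox6c (−0.41), Ndufb4 (−0.40), Uqcr11 (−0.38), Ndufa5 (−0.37) and Uqcrq (−0.35) were the others. By DESeq2 with the block 2 members fell, and without TMM scaling 5 fell. Control 2 held 17 cells of this class, and leaving a library out of the block leaves no residual degree of freedom.

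In goblet-like cells 3 of 91 members rose and 12 fell, against 8.29% of all genes higher and 7.06% lower, and the median was −0.03. The group alone called 0 members (0.0% of genes, with 7 members at an unadjusted p under 0.05), as did DESeq2. Ndufaf2 rose from 43.5 (control 1) and 33.0 CPM (control 2) to 68.5 (knockout 1) and 53.3 CPM (knockout 2) (0.59 ± 0.14, adjusted p = 0.000468), and Ndufaf4 from 58.4 and 50.2 to 76.0 and 74.7 CPM (0.40 ± 0.13, adjusted p = 0.0137). The acyl carrier protein Ndufab1 rose from 374 and 322 to 507 and 411 CPM (0.32 ± 0.10, adjusted p = 0.0091). Ndufa1, Atp5e, Cox17 and Uqcr10 (−0.43) had the largest falls, and Ndufa3, Ndufa6, Ndufb2, Ndufv3, Uqcr11, Cox6c, Cox7a2l and Cox7c fell by 0.26 to 0.35. Without TMM scaling the split was 8 higher and 6 lower, and by DESeq2 with the block 3 fell. The cluster led by Agr2, Atoh1 and Creb3l1 held 36.3% (control 1), 16.2% (control 2), 52.2% (knockout 1) and 41.0% (knockout 2) of goblet-like cells, higher in the knockout of each mouse, and its part in these calls was not tested.

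Enterocyte-like and Paneth-like cells had no member past the threshold. In enterocyte-like cells 0 of 92 members were called by edgeR with the block, with 6 at an unadjusted p under 0.05, and 0 with the group alone or by DESeq2. All genes were called at 1.21% higher and 0.945% lower with the block and 0.0% with the group alone. In Paneth-like cells 0 of 90 members were called, with 8 at an unadjusted p under 0.05 with the block, and 0 with the group alone or by DESeq2. The share of all genes called there was 0.0132% in each direction and 0.0132% with the group alone. The median member stood at −0.08 in enterocyte-like and −0.04 in Paneth-like cells. The difference of the knockout effect between enterocyte-like and cycling-like cells, an interaction term with the library as a block, was called for 0 of 93 members and 0.0% of genes, with 0 members at an unadjusted p under 0.05. For Ndufa1 that difference was −0.00 ± 0.26. So the calls in cycling-like cells are not shown to be particular to them.

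Across the 5 tested classes 20 members fell in at least 1 and 3 rose in at least 1. Of the 20, 6 fell in 3 classes, namely Ndufa1, Ndufb2, Uqcr11, Cox6c, Cox7c and Cox17. The share of all genes called in at least 1 class, or in 3, was not computed, so these counts are not shown to be unusual. The members that fell in a class include 5 of the 6 that fell in all cells, the exception being Cox7a1. Cox6b2, with few counts (0 UMIs in control 2 in Paneth-like and enteroendocrine-like cells), was higher in the knockout of both mice in all 6 classes, for example 2.13 and 3.25 against 5.41 and 8.48 CPM in enterocyte-like cells (1.40 ± 0.45, adjusted p = 0.0677).

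The summed level of the chain was lower in goblet-like, enteroendocrine-like and Paneth-like cells than in stem-like, enterocyte-like and cycling-like cells in all 4 libraries. A further named class, tuft-like cells, held only 4 to 10 cells per library and is left out here. Between stem-like, enterocyte-like and cycling-like cells, class differences were no larger than some differences between control and knockout. All members summed made 45300 and 45900 CPM in stem-like cells of controls 1 and 2, 46300 and 42400 CPM in enterocyte-like and 43600 and 43200 CPM in cycling-like cells. Enteroendocrine-like cells had 33600 and 35700 CPM and goblet-like cells 32600 and 30300 CPM, while Paneth-like cells had 17900 CPM in both controls. In the knockouts the values were 41800 and 43400 CPM (stem-like), 40700 and 41300 CPM (enterocyte-like), 40300 and 41400 CPM (cycling-like), 31200 and 32500 CPM (enteroendocrine-like), 32400 and 31200 CPM (goblet-like) and 16000 and 20200 CPM (Paneth-like). Over the 4 libraries the values of the 3 highest classes overlapped, as did those of goblet-like and enteroendocrine-like cells. Within each library stem-like cells lay above cycling-like cells, while the place of enterocyte-like cells varied. Paneth-like cells were lowest in all 4 libraries. Defensins and the Paneth markers took 33.4% to 39.4% of UMIs in Paneth-like cells. Over the remaining UMIs the members made 27500, 29600, 26200 and 30300 CPM there, against 33200 to 34500 CPM in goblet-like cells, so the class was lowest in this measure too. Cytosolic ribosome genes made 280000 to 309000 CPM in cycling-like and 106000 to 166000 CPM in enterocyte-like cells, and levels without them were not computed. The class levels are descriptions, since the classes are clusters of the same cells.

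**Figure D3:**
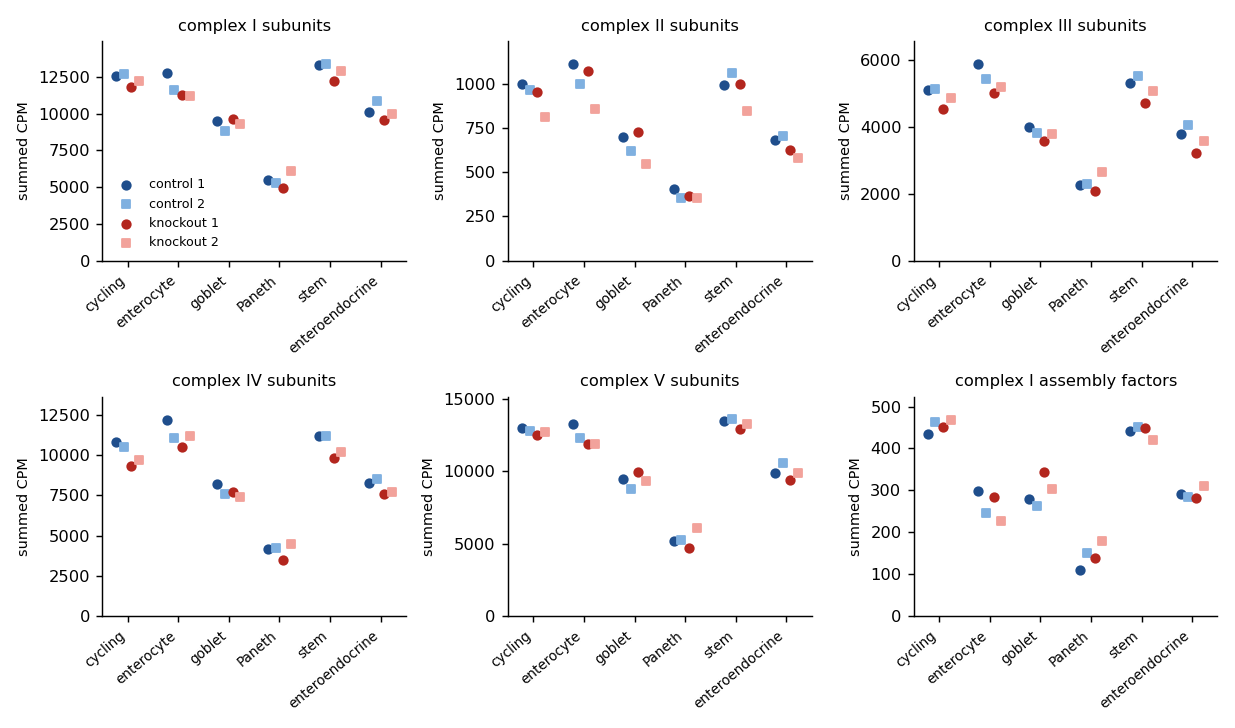
Summed level in CPM (y axis, from 0) of the genes of each complex and of the complex I assembly factors, by named class; each point is 1 library, with colours and shapes for group and number. Paneth-like cells are lowest in each panel, and the assembly factors are lower in enterocyte-like (227 to 298 CPM) than in cycling-like cells (435 to 467 CPM).

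Most complex I assembly factors were lower in enterocyte-like than in cycling-like cells, while subunits lay on both sides. The log2 ratio of enterocyte-like over cycling-like level was taken within each library for the 89 members with at least 5 CPM in both classes. The members' median was −0.07, near that of 6967 genes with the same minimum (−0.05). Of the 7 complex I assembly factors among them 6 were lower in enterocyte-like cells in all 4 libraries, with a median of −1.29. Sdhaf1 had the lowest ratio, −1.92 and −2.53 in controls 1 and 2 and −2.13 and −2.31 in knockouts 1 and 2. Of the other complex II assembly factors Sdhaf3 stood at −0.90, while Sdhaf2 (0.03) and Sdhaf4 (0.06) were each higher in 2 of 4 libraries. Ndufaf4 (−1.81), Ndufaf7 (−1.72), Ndufaf6 (−1.46) and Ndufaf2 (−1.29) came next. Complexes III and IV leaned to enterocytes with a median of 0.21 each, and complex I subunits the other way (−0.25).

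Single subunits broke from their complex. Ndufv3 was highest among members with 5 CPM, at 1.20, 1.36, 1.34 and 1.20 in controls 1 and 2 and knockouts 1 and 2, followed by Ndufa1 and Ndufa6 (0.82 each), Cox17 (0.74) and Ndufb7 (0.66). Ndufc2 stood at −1.25 and Atp5g2 at −1.26. Cox7a1, under 5 CPM in some cycling-like sums, ranged from 4.57 to 4.90. The ring subunit genes changed their mix accordingly. Atp5g2 gave 21.0%, 19.8%, 20.9% and 20.4% of their UMIs in enterocyte-like cells and 32.2% to 33.6% in cycling-like cells, while Atp5g3 gave 36.4% to 39.5% and 23.8% to 24.7%. The mix thus differed between these classes and hardly between control and knockout.

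**Figure D4:**
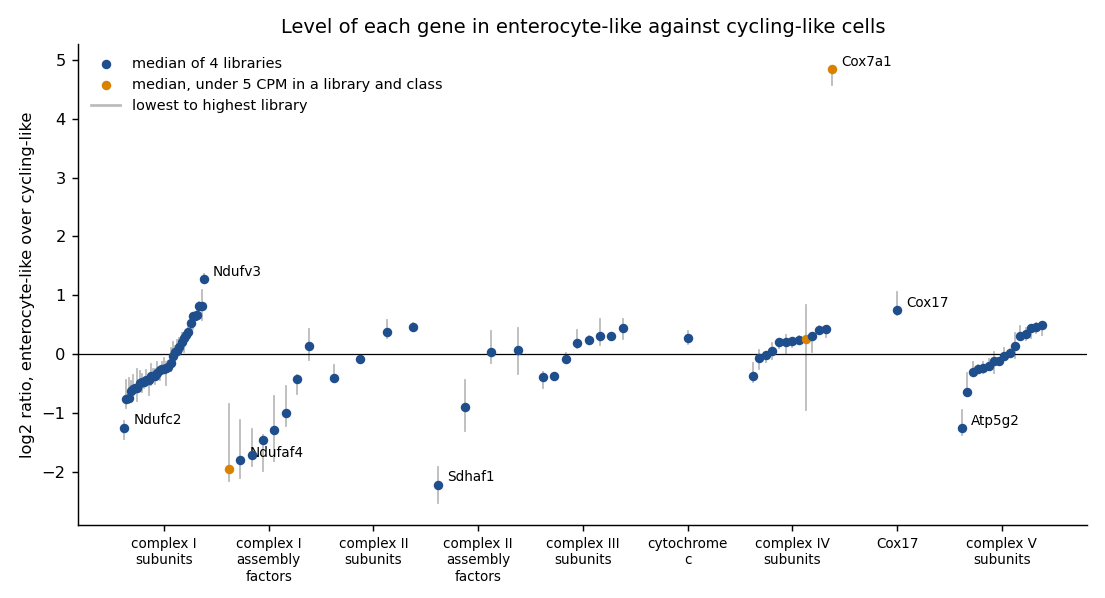
Log2 ratio of the level in enterocyte-like over cycling-like cells (y axis) of each member, by complex; points are the median of 4 libraries, lines run from the lowest to the highest library, and orange marks members under 5 CPM in a library and class. Most complex I assembly factors lie below 0 and Cox7a1 (4.84) lies far above the rest.

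Most members that fell have a short coding sequence. The 23 members under 100 codons in the GENCODE annotation had a median change of −0.25 in all cells, 21 of them were negative, 5 fell and 0 rose. At that length 27 of 271 other genes fell and 15 rose, with ribosome genes left out. The 45 members from 100 to under 200 codons had a median of −0.04, and the 25 members of 200 codons or more a median of 0.02. Across the 93 genes Spearman's rho between codons and change was 0.51. These genes share libraries and depth, so this is a description and has no p. The 2 short members above 0 were Ndufa4l2 and Cox6b2, both with few counts. Ndufv3 (468 codons) was the exception among long members.

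The shortest members also had lower medians than the longest within classes, at −0.25 and −0.08 for the shortest and longest members in cycling-like cells, −0.25 and 0.05 in goblet-like cells and −0.22 and 0.06 in Paneth-like cells. Cytosolic ribosome genes showed it as well (rho 0.78 over 83 genes, median −0.22 for the 11 under 100 codons). Among the 271 other genes under 100 codons, without members and ribosome genes, the median was −0.04 and 54.2% were negative. Depth per cell was lower in both knockouts, and its part in this pattern was not tested.

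**Figure D5:**
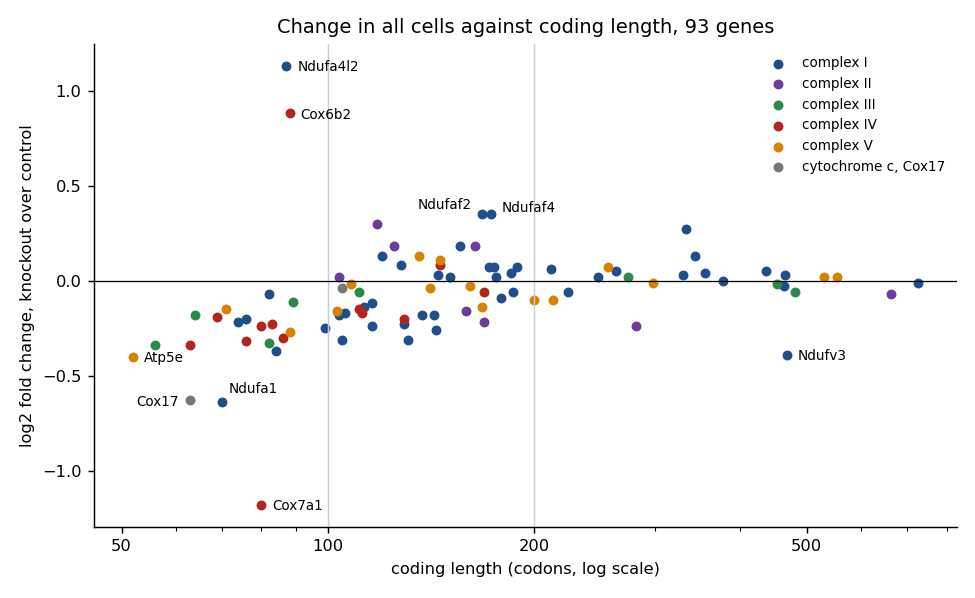
Log2 fold change in all cells (y axis) against coding length in codons (x axis, log scale) for the 93 genes, coloured by complex; grey lines mark 100 and 200 codons. Below 100 codons 21 of 23 genes lie under 0, while longer genes scatter around 0.

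Promoters of the members were searched for letters known from factors that drive respiratory genes. NRF1, a factor known for activating respiratory chain genes, was searched as GCGCATGCG, ETS factors such as GABPA as CCGGAAGT, YY1 as AAGATGGCG and ERRA as TCAAGGTCA, each on both strands. The window runs from 250 bases before to 50 after the RefSeq start (GRCm38.p6), and 77 members matched an entry. The NRF1 word stood in 11 members (14.3%), against 1.81% of 27025 promoters. The YY1 word stood in 7 (9.09% against 1.48%), the ETS word in 5 (6.49% against 3.99%) and the ERRA word in 2 (2.60% against 0.407%). Uqcr11 held both an NRF1 and an ETS word. Of the assembly factors that rose in all cells, Ndufaf4 held the NRF1 word and Ndufaf2 held none of the 4 words. The next lines give the 250 bases before the start, 5′ to 3′ on the gene's strand, of Cycs (chromosome 6, minus strand) and Ndufaf4 (chromosome 4, plus strand) with the NRF1 letters in capitals, and of Ndufa1 (chromosome X, minus strand), which fell and holds none of the 4 words in the window.
Cycs, chr6:50566570-50566819: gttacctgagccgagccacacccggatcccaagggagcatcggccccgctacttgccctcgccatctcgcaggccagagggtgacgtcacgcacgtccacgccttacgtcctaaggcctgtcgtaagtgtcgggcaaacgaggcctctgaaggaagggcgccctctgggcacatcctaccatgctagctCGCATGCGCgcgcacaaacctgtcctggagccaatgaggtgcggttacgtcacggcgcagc
Ndufaf4, chr4:24897833-24898082: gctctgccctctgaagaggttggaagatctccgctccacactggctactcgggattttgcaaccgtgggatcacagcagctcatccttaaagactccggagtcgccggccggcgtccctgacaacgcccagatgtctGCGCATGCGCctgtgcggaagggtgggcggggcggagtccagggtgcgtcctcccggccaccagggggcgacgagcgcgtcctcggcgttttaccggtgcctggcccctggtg
Ndufa1, chrX:37191239-37191488: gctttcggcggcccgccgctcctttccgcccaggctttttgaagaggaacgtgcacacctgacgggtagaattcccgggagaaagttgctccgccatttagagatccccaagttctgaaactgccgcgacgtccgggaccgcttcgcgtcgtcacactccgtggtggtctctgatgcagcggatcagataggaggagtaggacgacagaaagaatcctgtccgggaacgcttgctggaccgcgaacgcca
In Cycs the word lies on the opposite strand and lies at position −61 from the gene's start. In Ndufaf4 it reads on both strands and so overlaps itself by all but 1 base. The 11 members with the NRF1 word had a median change of −0.06 in all cells, as did the 66 matched members without it. A match is a run of letters and shows no binding, and its absence says only that the letters are not in this window.

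Other genes of mitochondrial metabolism give the setting of these changes in all cells. Of 77 tested mitochondrial ribosomal protein genes 3 rose and 0 fell, with a median of 0.16 (Mrpl16 at 0.40, Mrpl41 and Mrpl18 at 0.35 each). The 3 are near the background of 4.1%, and the median was 0.04 in cycling-like, −0.01 in enterocyte-like and near 0 in stem-like cells. Of 24 import genes 5 rose and 0 fell, with a median of 0.15 (Tomm5 at 0.43, Timm8a1 at 0.42, Tomm40 at 0.40), against medians of 0.07 in cycling-like, 0.02 in enterocyte-like and near 0 in stem-like cells. In goblet-like cells 7 of 24 rose, beside 8.29% of all genes, and the import median was 0.18. In Paneth-like cells the import median was 0.15. Among 6 carriers the ADP/ATP carrier Slc25a4 rose from 34.5 (control 1) and 17.0 CPM (control 2) to 70.3 (knockout 1) and 54.0 CPM (knockout 2) (1.29 ± 0.15, adjusted p = 0.00807), and the more abundant Slc25a5 stood at 1210 and 1220 against 1380 and 1300 CPM (0.10). Of 34 other assembly factors 1 fell, the complex IV factor Pet100 (−0.40), with Tmem70 at 0.31 (adjusted p = 0.0544) and Cmc1 at −0.26.

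Of 12 fatty acid oxidation genes 7 fell and 0 rose, with a median of −0.36 (Acadl at −0.58, Acaa2 at −0.51, Hadh at −0.48). In enterocyte-like cells, whose share was lower in the knockouts, 0 of the 12 were called with the block and the median was −0.09. Within other classes 3 fell in cycling-like (median −0.23), 3 in goblet-like (−0.24) and 2 in stem-like cells (−0.22), Paneth-like cells had 0 calls, and 0 rose. Of 13 TCA cycle genes 0 were called, with Ogdh at −0.34, Cs at −0.32 and Sucla2 at −0.18. The kinase Pdk2, which inhibits pyruvate dehydrogenase, fell (−1.14 ± 0.17, adjusted p = 0.0142), from 8.58 and 9.46 to 4.57 and 3.86 CPM, the one call among 10 genes of pyruvate entry.

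Of 14 glycolysis genes 2 rose in all cells, Pfkl (0.46) and Pgam1 (0.49), with Ldha at 0.33 and a list median of 0.27. In enterocyte-like cells 9 of the 14 rose and 0 fell (median 0.70), in goblet-like cells 10, in cycling-like cells 6 and in stem-like cells 3 of 13. Of 14 regulators of mitochondrial biogenesis 0 were called, with Esrra at −0.35 (adjusted p = 0.0591), Pprc1 at 0.34 and Tfam at 0.20. In goblet-like cells 18 mitochondrial ribosomal protein genes rose, beside a background of 8.29%.

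Markers of other cell types were scarce in these epithelial cultures. Summed over all cells, 5 immune markers had 1.48 to 3.79 CPM with Cd3e at 0, 4 endothelial markers 0.229 to 0.522 CPM with Emcn, Kdr and Cdh5 at 0, 3 glial markers 1.22 to 2.46 CPM with Sox10 at 0, and 3 erythroid markers 0 UMIs. The 6 mesenchymal markers, which include Vim, had 24.5 and 3.20 CPM in the controls and 12.5 and 31.4 CPM in the knockouts, with Col3a1 at 0. The enterocyte markers had 5680 (control 1), 13900 (control 2), 2700 (knockout 1) and 5620 CPM (knockout 2), lower in the knockout of each mouse, as Cox7a1 was.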

How the data were processed

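Deposited were raw UMI counts per gene and cell of 4 droplet single-cell libraries, which the authors made with Cell Ranger 3.0.1 on mm10, per the submitters' processing notes; the matrices name software version 3.0.0, per the file headers. The strand setting and annotation release are not given in the sources used here. About 7000 cells were loaded per channel and 1200 recovered on average, per the labels' protocols, against 5602 barcodes in the files. Barcodes with under 500 genes (173) and the 70 cells with the highest Scrublet doublet scores (0.8% per 1000 cells) were left out, since its own threshold marked under 0.5% of the cells. Pairs of libraries shared 0 or 1 barcodes. Cells were clustered with scanpy 1.11.5 (2000 variable genes without the members, 30 principal components, 15 neighbours, Leiden resolution 1, 17 clusters). A cluster was named where a marker list scored at least 0.5 with at least 3 markers detected, and between 15.4% and 20.6% of cells per library stayed unnamed.

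Counts were summed per library and class, filtered with filterByExpr and tested with edgeR 4.0.16 (TMM, quasi-likelihood, 2-sided) in R 4.3.3. The group alone was fitted first and leaves 2 residual degrees of freedom, and the replicate block leaves 1. Same-numbered libraries are taken to come from the same mouse, per the mouse tag in the deposited names. Their deviations correlated at 0.66 in all cells and 0.169 to 0.555 in the 5 classes. Replicates differed beyond counting noise (chi-square per degree of freedom 93.5 between controls and 64.9 between knockouts). DESeq2 1.42.0 and other settings were alternatives. The tests were tried on simulated counts. Members were named where they were among the largest called changes of their group (up to 4 in each direction in all cells, up to 2 in each class), stood on a fixed list of core and alternative subunits, or were among the 5 highest or 5 lowest ratios of enterocyte-like over cycling-like level; other members named beside them were chosen after their values were seen. Of each other list up to 3 genes with the smallest p in all cells were named. The members and lists were chosen with earlier results of these data known.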

Additional observations from a re-analysis of the deposited data

Results flagged for a closer look

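In 4 cases the summed level of a complex moved one way in both mice in one class and the other way in both mice in another; the difference between the classes was not tested. Complex I subunits had log2 ratios, knockout over control, of 0.01 and 0.08 in goblet-like cells of numbers 1 and 2 and −0.18 and −0.05 in enterocyte-like cells, a gap of 0.16 between the means. Complex V genes had 0.07 and 0.09 against −0.16 and −0.05 in the same classes, a gap of 0.18. These sums are scaled to library totals, without TMM. In the TMM-scaled block fit of goblet-like cells, 17 complex I subunits were above 0 and 20 below, with a median of −0.01. For complex V genes these counts were 7 and 9, with a median near 0. The 2 goblet-like rises are thus not shown apart from this scaling. The complex I assembly factors had 0.34 and 0.25 in Paneth-like cells and −0.07 and −0.11 in enterocyte-like cells, a gap of 0.38. Cycs, the gene for cytochrome c, had 0.42 and 0.14 in goblet-like cells and −0.23 and −0.56 in enteroendocrine-like cells, a gap of 0.68, and control 2 held only 11 enteroendocrine-like cells. With 2 libraries per group, a single library far from the others cannot be tested for.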

How the results depend on the processing

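With the group alone 0 members were called in all cells and in each of the 5 classes, and leaving out each library in turn gave 0 in all cells, cycling-like, enterocyte-like, goblet-like and stem-like cells and 0 to 2 in Paneth-like cells (2 without knockout replicate 1). The replicate block called 8 in all cells, 17 in cycling-like, 15 in goblet-like and 9 in stem-like cells and changed no other call, and leaving out a library with the block leaves no residual degree of freedom. With the block and DESeq2 the counts were 6, 3, 3 and 2 (56 members had an adjusted p in stem-like cells). With the block and no TMM scaling they were 10, 5, 14 and 5, and 1 in enterocyte-like cells, and with the block and no low-count filter 12, 27, 9 and 7, and 1 each in enterocyte-like and Paneth-like cells. With the block and doublets kept they were 9, 19, 13 and 12, and 1 in Paneth-like cells. With the block and 1000 genes per cell 9 were called in all cells, and with the block and without the Psph-led cluster 30 in cycling-like cells. With the group alone, DESeq2 called 1 in all cells, and dropping the filter called 1 each in cycling-like, enterocyte-like and goblet-like and 3 in stem-like cells. The difference between enterocyte-like and cycling-like cells called 0 members under each setting run. The 8 members called in all cells kept their direction under all settings run, and the block with DESeq2 called 5 of the 8.

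The mean over 4 libraries of the summed level of the members moved from 42100 to 41500 CPM in cycling-like cells with doublets kept and from 31600 to 29200 CPM in goblet-like cells at clustering resolution 1.5. With TMM-scaled library sizes the mean log2 ratio of the summed level was −0.1 for all members, −0.08 for complex I subunits, 0.11 for their assembly factors, 0.2 for complex II assembly factors, −0.63 for Cox17 and −0.04 for complex V. With control class shares it was 0.05 for complex I and 0.14 for complex II assembly factors, −0.5 for Cox17 and −0.03 for complex V. The cause of these shifts was not tested. Depth limits the rare members and the stem-like and enteroendocrine-like cells of control 2 most.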
